A study of Mus musculus with 23 samples.

Results

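The nuclear-encoded subunits of oxidative phosphorylation were followed through RNA sequencing of mouse liver. Members were taken by gene name, namely the Nduf genes of complex I with a letter a, b, c, s or v and a digit, Sdha to Sdhd, the Uqcr genes, the Cox4 to Cox8 families and the Atp5 genes, without names ending in -ps. A member also needed 10 or more counts in at least 5 of the 23 libraries. Of 24062 genes in the deposited tables, 79 were subunits by this rule, with 37 in complex I, 4 in complex II, 8 in complex III, 13 in complex IV and 17 in complex V. The 7 Ndufaf genes, which encode assembly factors of complex I, were kept as a separate set. The rule used names and the overall count, and no difference between groups.

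The 23 polyA-selected libraries came from livers of the mixed strain B6/129, and each was taken as 1 mouse. Mice were knockout (KO) or wild type (WT) for Ehhadh, the gene of the peroxisomal L-bifunctional protein of fatty acid oxidation, and had received L-AC or saline. The labels do not spell out L-AC and state no dose or duration. There were 5 KO mice under L-AC aged 28 to 38 weeks, 6 WT mice under L-AC aged 28 to 44 weeks, 5 KO mice under saline aged 31 to 44 weeks and 7 WT mice under saline aged 29 to 45 weeks.

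Oxidative phosphorylation passes electrons from NADH through complex I, and from succinate through complex II, to ubiquinone, then through complex III and cytochrome c to complex IV, where oxygen is reduced. Complexes I, III and IV pump protons across the inner mitochondrial membrane, and complex V, the ATP synthase, lets them return and makes ATP. Hepatocytes are rich in mitochondria and use this machinery to pay for gluconeogenesis and urea synthesis. A few core subunits of every complex except complex II are encoded by mitochondrial DNA, and those were not analysed here.

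Total counts ran from 24521896 to 48095959 per library. Ehhadh, the check of the genotype labels, averaged 1658 ± 286 CPM in KO livers under L-AC and 13040 ± 1602 CPM in WT livers under L-AC (SD, n = 5 and 6), and 142 ± 64.4 CPM in KO livers against 954 ± 335 CPM in WT livers under saline (SD, n = 5 and 7). CPM are counts scaled to the library size after TMM, a correction for RNA composition. Ehhadh was lower in every KO library than in every WT library of the same treatment, but not at 0. Hepatocyte markers were abundant in all libraries, and their sum, most of it Alb, stood at 33950 to 57460 CPM in KO livers under L-AC against 61700 to 72170 CPM under saline, and at 45900 to 53730 CPM in WT livers under L-AC against 56990 to 68150 CPM under saline. The list did not move as one: Alb, Ttr, Serpina1a and Hnf4a were called lower under L-AC in KO livers and none of 8 higher, and in WT livers Alb, Ttr and Serpina1a were called lower and Ass1 and Tat higher. Muscle markers, which could bring muscle isoforms of the subunits, summed to at most 1.33 CPM in any library. Pancreatic acinar markers summed to 40.5 CPM in KO saline replicate 5 and to 5.86 to 25.1 CPM in the other libraries. Of the brown adipocyte markers, Cidea, Elovl3 and Ppara were tested, genes that liver also expresses, and 2 of them were called higher in KO livers and 3 in WT livers under L-AC. Markers of other cells also moved with L-AC. Of 5 Kupffer cell and macrophage markers, summing to 31.4 to 117.5 CPM in KO livers under L-AC against 55.9 to 91.4 CPM under saline and to 36.6 to 65.4 CPM in WT livers under L-AC against 40.3 to 145 CPM under saline, Cd68 was called higher in both genotypes (4.83-fold in KO livers, 2.83-fold in WT livers) and Csf1r and Vsig4 lower in both. Of 5 T and B cell markers tested, at most 7.3 CPM in sum, Cd3e was higher and Cd4 and Ms4a1 lower in both. Dcn and Rgs5 of 8 stellate and smooth muscle markers were higher in both, as was Plin1 of 2 adipocyte markers tested, and Clec4g of 6 endothelial, Spp1 of 5 cholangiocyte, Cela1 of 2 acinar and Alas2 of 5 erythroid markers were lower in both. The part of these cells in the results below was not tested. Beside these marker counts, 25.2% of all genes tested were called higher and 23.6% lower in KO livers, and 26.6% and 26.7% in WT livers.

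Promoter sequence was compared with the response of each gene, since several factors that bind such promoters are known regulators of respiratory genes. RefSeq promoter stretches of build GRCm38.p6, 250 bases before to 50 bases after the start site, were matched for 67 of the 79 subunits. The 8 stretches here run from 100 bases before to 50 bases after the start, 5′ to 3′ on the strand of the gene, and belong to genes with results below: the first 4 genes rose under L-AC in at least 1 genotype and the other 4 fell. Each of the 8 holds at least 1 match to the letters named next, so they do not stand for the members as a whole. For Ndufv3, Atp5a1, Ndufs1 and Ndufaf6, which also have results below, no match was found or no promoter was matched. Capitals mark matches, on either strand, to the letters TGCGCANGC of NRF1, CCGGAAG of ETS factors such as GABPA, AAGATGGC of YY1, TCAAGGTCA of the oestrogen-related receptors (ERR) and GGGGCGGGG of Sp1.
Atp5g3, chr2:73911277-73911426, minus strand: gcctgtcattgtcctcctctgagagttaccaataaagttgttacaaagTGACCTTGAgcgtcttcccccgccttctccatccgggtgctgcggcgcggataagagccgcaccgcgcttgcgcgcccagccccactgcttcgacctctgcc
Sdhd, chr9:50603800-50603949, minus strand: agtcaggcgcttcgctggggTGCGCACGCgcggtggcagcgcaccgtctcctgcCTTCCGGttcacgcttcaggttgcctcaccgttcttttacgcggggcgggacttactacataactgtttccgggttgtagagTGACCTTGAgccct
Uqcrc1, chr9:108936548-108936697, plus strand: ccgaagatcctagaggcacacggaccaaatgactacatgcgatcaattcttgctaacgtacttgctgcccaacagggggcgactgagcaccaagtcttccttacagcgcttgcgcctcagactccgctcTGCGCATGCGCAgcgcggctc
Ndufaf4, chr4:24897983-24898132, plus strand: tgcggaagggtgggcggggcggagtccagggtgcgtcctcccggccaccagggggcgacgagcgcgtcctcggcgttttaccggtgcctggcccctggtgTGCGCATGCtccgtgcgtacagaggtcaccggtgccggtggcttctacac
Ndufa6, chr15:82354242-82354391, minus strand: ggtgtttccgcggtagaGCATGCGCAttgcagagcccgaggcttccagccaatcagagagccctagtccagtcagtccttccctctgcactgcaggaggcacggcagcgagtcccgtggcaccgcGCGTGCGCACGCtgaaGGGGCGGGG
Ndufs8, chr19:3912725-3912874, minus strand: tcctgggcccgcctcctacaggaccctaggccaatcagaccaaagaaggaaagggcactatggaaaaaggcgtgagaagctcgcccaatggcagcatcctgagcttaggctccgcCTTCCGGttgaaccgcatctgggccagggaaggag
Atp5j2, chr5:145191492-145191641, minus strand: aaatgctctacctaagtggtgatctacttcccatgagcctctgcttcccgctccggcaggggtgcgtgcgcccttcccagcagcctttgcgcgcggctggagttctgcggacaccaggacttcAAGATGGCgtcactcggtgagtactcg
Atp5sl, chr7:25619314-25619463, plus strand: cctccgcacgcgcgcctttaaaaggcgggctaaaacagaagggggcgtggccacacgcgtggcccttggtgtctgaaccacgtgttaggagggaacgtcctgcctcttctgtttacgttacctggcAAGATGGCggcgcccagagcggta

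The ERR letters began 52 bases before the start site of Atp5g3, and at base 37 after the start site of Sdhd. These were the 2 subunit promoters that held them, or 2.99% (95% Wilson interval 0.822 to 10.2), against 0.372% of the 10475 tested genes with a promoter. Both genes were called higher under L-AC in WT livers, that is at an adjusted p under 0.05 by edgeR, as were 26.6% of all genes tested, while 26.7% were called lower. The YY1 letters stood in 11 of the 67 subunit promoters, 16.4% (9.42 to 27.1), against 4.95% of tested genes. None of the 10 subunits with a promoter that were called higher in WT livers held them, against 4 of the 16 called lower and 7 of the 41 not called. In Atp5j2 and Atp5sl the YY1 letters began at bases 24 and 27 after the start site. The NRF1 letters were in 12 subunit promoters, 17.9% (10.6 to 28.7) against 9.13% of tested genes, and 3 of the 10 subunits called higher, 2 of the 16 called lower and 7 of the 41 not called held them. In Ndufa6 and in Uqcrc1, 2 NRF1 matches overlapped each other. ETS letters were found in 23.9% of subunit promoters (15.3 to 35.3) and 18.5% of tested genes, Sp1 letters in 17.9% (10.6 to 28.7) and 23.8%, and the cyclic AMP response letters TGACGTCA in 5.97% (2.35 to 14.4) and 3.41%. Among all 32851 promoters of the table, the shares were 4.16% for NRF1, 8.86% for ETS, 2.75% for YY1, 0.423% for ERR, 11.4% for Sp1 and 1.79% for TGACGTCA. A match is a run of letters and not a shown binding site, and a few matches among 10 or 16 promoters leave wide intervals.

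Under L-AC, oxidative phosphorylation genes moved in both directions in both genotypes. Catalytic and core subunits of complexes III and V were among those that rose. Small or accessory subunits of complexes I, III and V were among those that fell. These roles were assigned after the values were seen, and not all genes went with them. The core subunit Ndufs8 fell and the small subunit Uqcr10 rose. In KO livers 12 of 79 subunits were called higher and 15 lower, and in WT livers 13 were called higher and 19 lower, by edgeR's quasi-likelihood test at an adjusted p under 0.05. The changes were small. The median size of change was 0.13 on the log2 scale in KO livers and 0.14 in WT livers, against 0.39 and 0.37 over all 14196 genes tested. Called and past 1.5-fold were 3 members in KO livers and 4 in WT livers. These were Ndufv3, Ndufa4l2 and Atp5sl in both genotypes, and Cox6b2 in WT livers. Ndufa4l2 and Cox6b2 had few counts, at most 45 and 115 per library. Atp5sl carries an Atp5 name without being a subunit of the enzyme. The background was high, since 48.8% of all genes tested were called in KO livers and 53.3% in WT livers. The subunits' 34.2% in KO livers and 40.5% in WT livers lay below it, as did their shares past 1.5-fold, where the background was 29.4% in KO livers and 29.3% in WT livers. CPM of the groups did not overlap for 11 subunits in KO livers and 15 in WT livers, against a background of 32.6% and 24.1% of genes. At an unadjusted p under 0.05, 29 subunits passed in KO livers and 32 in WT livers, against 55.1% and 58.4% of genes. In whole liver, fewer cells of a type and less RNA per cell cannot be told apart.

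The pattern was shared by the genotypes. The treatment contrasts of KO and of WT livers use separate mice, and 25 subunits were called in both, 10 higher and 15 lower, with none called in opposite directions. These were 92.6% of the calls in KO livers and 78.1% of those in WT livers, against 86.7% and 79.3% for all genes tested. Ndufa8 and Atp5s were called in KO livers alone, and Ndufs6, Sdhd, Cox6b2, Cox6c, Atp5e, Atp5g2 and Atp5k in WT livers alone. The test of the difference between the responses called none of these 9, so they are not shown to differ.

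**Figure D1:**
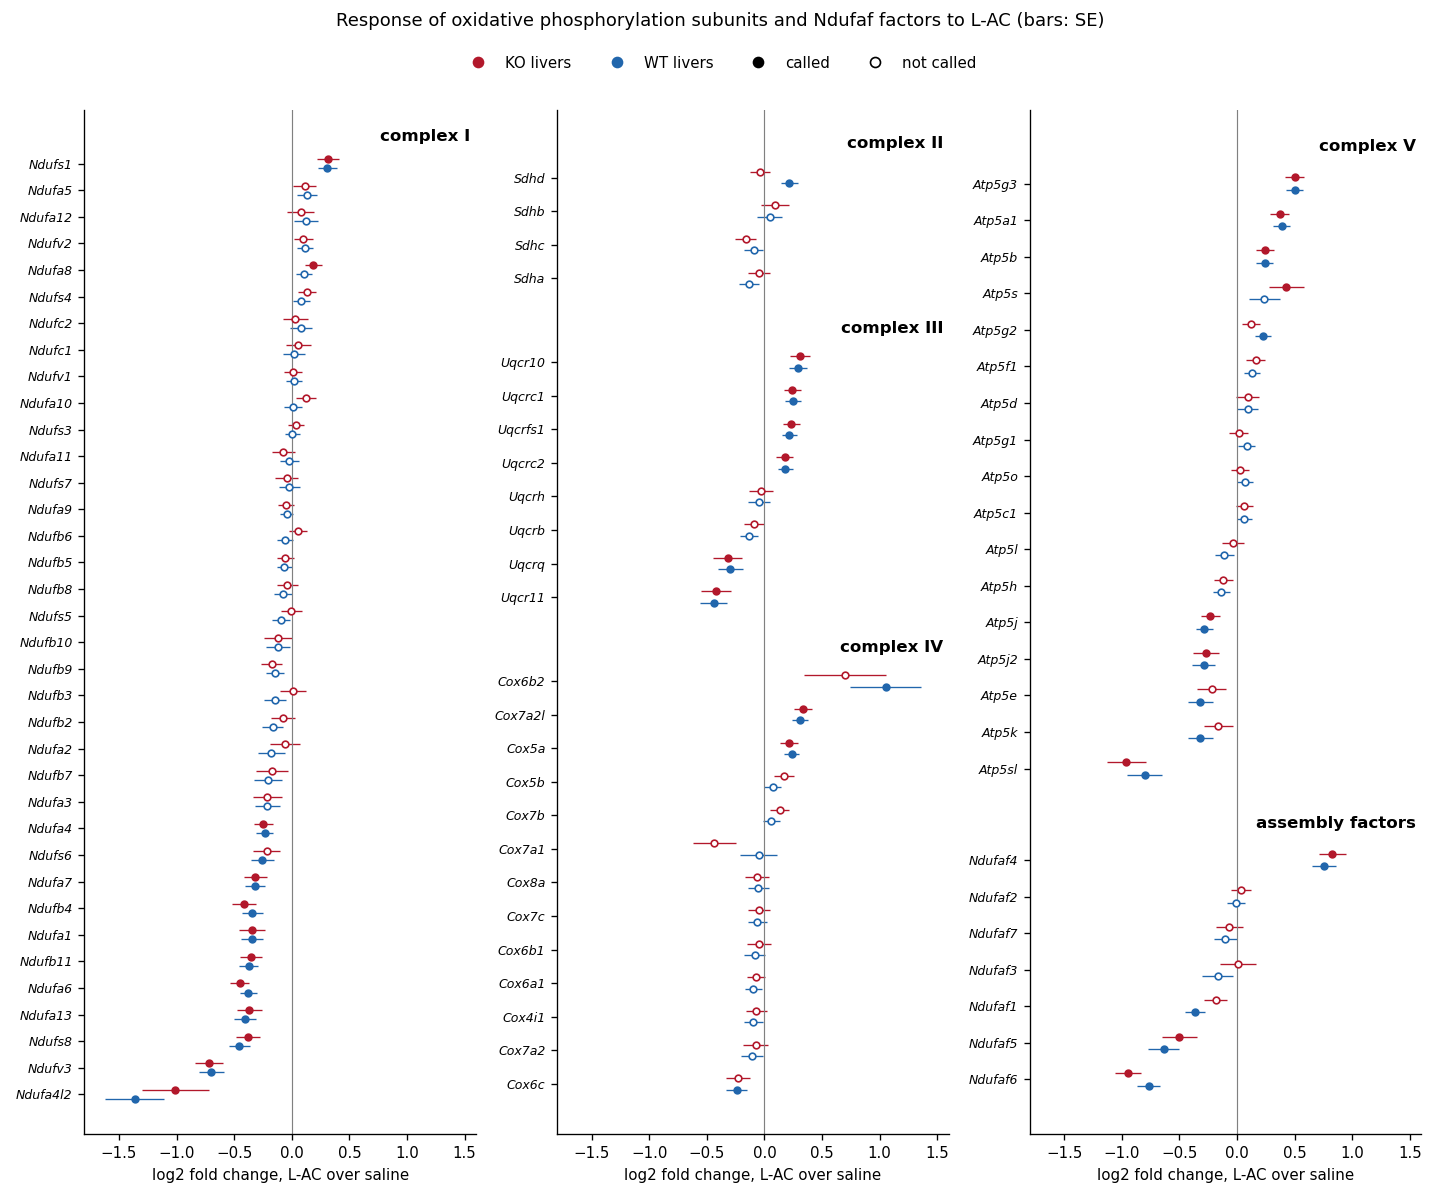
Log2 fold change under L-AC over saline for the members named in the plot, by complex, in KO livers (red) and WT livers (blue); bars are the SE of the fit, filled points were called at an adjusted p under 0.05 and open points were not. Most points lie within 0.5 of 0, and the KO and WT points of a gene lie close together, with Ndufa4l2, Atp5sl and Ndufaf6 among the lowest and Cox6b2, Ndufaf4 and Atp5g3 among the highest.

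The balance of higher and lower calls depended on scaling. With library size alone in place of TMM, a setting chosen after seeing the data, 20 subunits were called higher and 10 lower in KO livers, so that 66.7% of the calls were higher against 44.4% with TMM. In WT livers 17 were higher and 16 lower, 51.5% against 40.6%. That scaling moved the median of all genes tested to 0.11 in KO livers and 0.06 in WT livers, from about 0 with TMM (-0.01 and -0.01), and the median of the subunits to 0.07 and 0.01, from -0.05 and -0.06. Relative to the median of all genes, the subunits stood at -0.04 in KO livers and -0.05 in WT livers under either scaling. None of the calls of single genes named here changed direction between the scalings. Single libraries also mattered in KO livers, where 8 subunits were called higher without KO saline replicate 5, 11 lower without KO saline replicate 2 and 20 lower without KO L-AC replicate 2, and where the median of the subunits was 0.025 without KO L-AC replicate 3 and 0.014 without KO saline replicate 2. As an unscaled share of all counts, the 79 subunits made up 1.30% ± 0.0623 in KO livers under L-AC against 1.16% ± 0.0838 under saline (SD, n = 5 each), and 1.26% ± 0.0343 in WT livers under L-AC against 1.17% ± 0.0281 under saline (SD, n = 6 and 7). KO saline replicate 2 had the highest share of its group, 1.31%, while the other 4 had 1.10 to 1.14%.

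Complex I oxidises NADH and has the most subunits, by gene name 7 core ones encoded in the nucleus and 30 accessory ones among the members. The 30 include Ndufa4, now placed in complex IV, and its paralogue Ndufa4l2, both called lower in each genotype. In KO livers 2 of the 37 were called higher and 10 lower, and in WT livers 1 higher and 11 lower, where 25.2% and 26.6% of all genes were called higher and 23.6% and 26.7% lower. Of the 30 accessory subunits 9 fell in KO livers and 10 in WT livers, shares near that background, and of the 7 core subunits 1 fell in each genotype.

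The largest fall of an abundant complex I gene was that of Ndufv3, an accessory subunit of the NADH-binding flavoprotein part. It had 36.2, 50.4, 29.6, 41.1 and 34.4 CPM in the 5 KO livers under L-AC, against 64.8, 73.01, 59.7, 61.8 and 56.5 CPM in those under saline. In WT livers it ran from 33.1 to 41.5 (median 38.4) CPM under L-AC, against 49.7 to 76.6 (median 59.7) CPM under saline. No L-AC library reached a saline library of its genotype. The log2 fold change was -0.72 (SE 0.122, 1.65-fold lower, adjusted p = 4.83e-05 by edgeR) in KO livers and -0.70 (SE 0.108, 1.62-fold lower, adjusted p = 1.26e-05) in WT livers.

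Ndufa6, an accessory subunit of the LYR family that binds the mitochondrial acyl carrier protein, had 119, 110.4, 100.2, 116 and 96.5 CPM in KO livers under L-AC, against 158, 159, 141, 153 and 130.4 CPM under saline. In WT livers it ran from 96.1 to 120.5 (median 112) CPM under L-AC, against 125 to 158 (median 141) CPM under saline. Groups did not overlap in either genotype, and the fall was 1.37-fold in KO livers (log2 -0.45, SE 0.0832, adjusted p = 1.12e-04 by edgeR) and 1.30-fold in WT livers (log2 -0.38, SE 0.0733, adjusted p = 1.81e-04). The acyl carrier protein itself, Ndufab1, is also a complex I subunit but falls outside the naming rule. It went the other way, at 99.2 ± 18.1 CPM in KO livers under L-AC against 55.1 ± 4.17 CPM under saline (SD, n = 5 each) and 96.3 ± 7.11 CPM in WT livers under L-AC against 57.4 ± 4.45 CPM under saline (SD, n = 6 and 7), a rise of 1.80-fold and 1.68-fold (adjusted p = 5.87e-07 and 4.16e-07 by edgeR).

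The core subunits Ndufs8 and Ndufs1, which both carry iron-sulphur clusters on the electron path, moved in opposite directions. Ndufs8 had 38.9, 53.7, 35.9, 42.9 and 36.1 CPM in KO livers under L-AC, against 55.4, 61.6, 48.2, 53.4 and 51.3 CPM under saline, with replicate 2 the highest of each group and an overlap between the groups. Its WT levels ran from 31.5 to 43.5 (median 40.03) CPM under L-AC, against 46.7 to 62.1 (median 53.5) CPM under saline, with no overlap. Ndufs8 fell by 0.38 on the log2 scale in KO livers (SE 0.107, adjusted p = 5.59e-03 by edgeR) and by 0.45 in WT livers (SE 0.0943, adjusted p = 3.47e-04). Ndufs1 had 124, 130.5, 144, 154 and 139.5 CPM in KO livers under L-AC, against 104, 123, 104, 108 and 117 CPM under saline, and these did not overlap. WT livers ran from 130.4 to 149 (median 139) CPM under L-AC, against 95.9 to 143 (median 117) CPM under saline, and 1 saline library reached into the L-AC range. The rise was 1.24-fold in both genotypes (log2 0.32, SE 0.0952, adjusted p = 8.76e-03 in KO livers by edgeR, and 0.31, SE 0.0835, adjusted p = 3.72e-03 in WT livers). The core subunits Ndufs3, Ndufs7, Ndufv1 and Ndufv2 were not called in either genotype.

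Among the other accessory subunits, Ndufa13, Ndufa1, Ndufa7, Ndufb4, Ndufb11 and Ndufa4 were called lower in both genotypes, by 0.25 to 0.42 on the log2 scale in KO livers and by 0.24 to 0.41 in WT livers. Ndufa4, which is now placed in complex IV in spite of its name, averaged 211 ± 25.9 CPM in KO livers under L-AC against 251 ± 13.3 CPM under saline (SD, n = 5 each). Ndufs6, a zinc-binding accessory subunit, fell by 0.26 on the log2 scale in WT livers (SE 0.102, adjusted p = 0.0392 by edgeR). Ndufa8 was called higher in KO livers at 0.19 (SE 0.0759, adjusted p = 0.0441 by edgeR), a call lost when any of 10 libraries was left out (adjusted p up to 0.108, without KO L-AC replicate 2).

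Ndufa4l2, a paralogue of Ndufa4 known as a hypoxia-induced gene, was the lowest-expressed complex I member. It had 0.512, 0.68, 0.38, 0.429 and 0.432 CPM in KO livers under L-AC, against 0.787, 1.59, 0.857, 1.199 and 0.537 CPM under saline, with an overlap. In WT livers it ran from 0.248 to 0.511 (median 0.349) CPM under L-AC, against 0.583 to 1.26 (median 1.01) CPM under saline, with none. It was 2.02-fold lower in KO livers (log2 -1.01, SE 0.293, adjusted p = 6.71e-03 by edgeR) and 2.58-fold lower in WT livers (log2 -1.37, SE 0.260, adjusted p = 1.43e-04), on 9 to 45 counts per library. Its exons overlap those of Shmt2, so part of its reads cannot be told from that gene's.

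Of the 7 Ndufaf assembly factors, 1 was called higher and 2 lower in KO livers, and 1 higher and 3 lower in WT livers. The share of all genes called in either direction was 48.8% in KO livers and 53.3% in WT livers. Ndufaf4, which acts early in building the ubiquinone-binding part, had 38.9, 43.8, 38.8, 37.7 and 45.5 CPM in KO livers under L-AC, against 22.7, 26.1, 22.1, 20.3 and 24.2 CPM under saline. Levels in WT livers ran from 34.4 to 54.9 (median 40.7) CPM under L-AC, against 21.6 to 29.1 (median 25.9) CPM under saline. The groups were apart in both genotypes, with a rise of 1.77-fold in KO livers (log2 0.82, SE 0.117, adjusted p = 5.61e-06 by edgeR) and 1.68-fold in WT livers (log2 0.75, SE 0.102, adjusted p = 2.51e-06).

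Ndufaf6, another early assembly factor, went down. It had 4.74, 5.402, 3.66, 4.43 and 5.87 CPM in KO livers under L-AC, against 9.34, 9.77, 9.11, 9.83 and 8.48 CPM under saline. WT livers ran from 4.73 to 6.03 (median 5.23) CPM under L-AC, against 8.08 to 10.3 (median 9.19) CPM under saline. The groups did not overlap in either genotype, and the fall was 1.93-fold in KO livers (log2 -0.95, SE 0.113, adjusted p = 5.87e-07 by edgeR) and 1.70-fold in WT livers (log2 -0.77, SE 0.0991, adjusted p = 1.26e-06). Ndufaf5, which modifies the core subunit Ndufs7, fell 1.41-fold in KO livers (2.22 ± 0.428 CPM under L-AC against 3.15 ± 0.334 CPM under saline, SD, n = 5 each) and 1.56-fold in WT livers (2.21 ± 0.363 CPM under L-AC against 3.44 ± 0.477 CPM under saline, SD, n = 6 and 7). Ndufaf1, a chaperone of the membrane arm, fell by 0.36 on the log2 scale in WT livers (SE 0.0890, adjusted p = 1.56e-03 by edgeR). Ndufaf2, Ndufaf3 and Ndufaf7 were not called in either genotype. Of 8 other complex I assembly factors, 2 were called lower in KO livers and 3 in WT livers and none higher. Lower calls made up 23.6% and 26.7% of all genes, and higher calls 25.2% and 26.6%. Acad9 and Tmem126b, partners of Ndufaf1, were lower in both, Acad9 by 0.47 on the log2 scale in KO livers and by 0.55 in WT livers.

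Complex II, succinate dehydrogenase, also serves the tricarboxylic acid cycle, and has 4 genes among the members. None was called in KO livers and 1 in WT livers, against 48.8% and 53.3% of all genes called in either direction. Sdhd, a membrane anchor subunit, was called in WT livers alone (log2 0.22, SE 0.0753, adjusted p = 0.0191 by edgeR). It had 162, 152, 139.9, 178 and 145 CPM in KO livers under L-AC, against 149, 175, 161, 176 and 137 CPM under saline, a full overlap. WT livers ran from 154 to 174 (median 166) CPM under L-AC, against 131 to 168 (median 139.6) CPM under saline, where 1 saline library, replicate 4, lay inside the L-AC range.

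Complex III takes electrons from ubiquinol to cytochrome c. Among all genes, 25.2% were called higher and 23.6% lower in KO livers, and 26.6% and 26.7% in WT livers. Complex III had 4 of 8 members called higher and 2 lower in each genotype. All 3 of its core and Rieske proteins were called higher in both genotypes: Uqcrc1 (log2 0.24 in KO livers, 0.25 in WT livers), Uqcrc2 (0.18 and 0.18, adjusted p = 0.0486 and 0.0222 by edgeR) and Uqcrfs1, the Rieske iron-sulphur protein (0.23 and 0.22). Of the 5 small subunits, Uqcr10 was called higher in both, Uqcr11 and Uqcrq lower in both, and Uqcrh and Uqcrb not called. Uqcrc1 had 287, 289.8, 284, 305 and 291 CPM in KO livers under L-AC, against 248, 280.2, 230.2, 230.5 and 243 CPM under saline, without overlap. Uqcr11 had 109, 144, 77.8, 124 and 94.6 CPM in KO livers under L-AC, against 142, 183, 135, 137 and 139.5 CPM under saline, with an overlap, and 93.4 to 113 (median 109.7) CPM in WT livers under L-AC, against 128 to 182 (median 139) CPM under saline, without. Uqcr11 fell 1.34-fold in KO livers (log2 -0.42, SE 0.131, adjusted p = 0.0103 by edgeR) and 1.36-fold in WT livers (log2 -0.44, SE 0.115, adjusted p = 2.73e-03). Uqcr10 rose 1.24-fold in KO livers (SE 0.0894 on the log2 scale, adjusted p = 6.63e-03 by edgeR) and 1.22-fold in WT livers (SE 0.0783, adjusted p = 3.56e-03). The call of Uqcrq in KO livers (log2 -0.32, SE 0.127, adjusted p = 0.0425 by edgeR) was lost without any of 7 libraries, with an adjusted p up to 0.132 without KO L-AC replicate 3, and in WT livers (log2 -0.30, adjusted p = 0.0307) on leaving out any of 3 WT libraries, up to 0.0888 without WT saline replicate 3. That of Uqcrfs1 in KO livers had an adjusted p of 0.0575 without KO L-AC replicate 4.

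The catalytic partner of these proteins, cytochrome c1 (Cyc1), and the carrier cytochrome c (Cycs) have names outside the rule and also rose, with larger fitted changes. Cycs averaged 200 ± 12.1 CPM in KO livers under L-AC against 81.6 ± 10.2 CPM under saline (SD, n = 5 each), and 195 ± 17.6 CPM in WT livers under L-AC against 90.4 ± 10.2 CPM under saline (SD, n = 6 and 7). This was 2.45-fold in KO livers (adjusted p = 1.17e-09 by edgeR) and 2.15-fold in WT livers (adjusted p = 7.42e-10), and Cyc1 rose 1.31-fold and 1.41-fold (adjusted p = 5.75e-03 and 1.49e-04). With Ndufab1, all 3 of these genes outside the naming rule were called higher in both genotypes, against 25.2% of all genes in KO livers and 26.6% in WT livers. These 3 were listed with earlier results of these data known, so they do not stand for other genes outside the rule.

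Complex IV, cytochrome c oxidase, had 2 of 13 members called higher and none lower in KO livers, where 25.2% and 23.6% of all genes were, and 3 higher and 1 lower in WT livers, where 26.6% and 26.7% were. Ndufa4, counted by its name in complex I and not among these 13, was called lower in both genotypes. Cox7a2l, a factor that joins complexes III and IV into supercomplexes, had 114, 101, 102, 103 and 111 CPM in KO livers under L-AC, against 83.1, 95.3, 79.9, 88.3 and 75.3 CPM under saline, without overlap. It rose 1.26-fold in KO livers (log2 0.33, SE 0.0787, adjusted p = 1.42e-03 by edgeR) and 1.24-fold in WT livers (log2 0.31, SE 0.0690, adjusted p = 8.03e-04). Cox5a, a matrix-facing subunit, rose by 1.16-fold in KO livers and 1.18-fold in WT livers, and its KO call was lost without any of 5 libraries (adjusted p up to 0.0889, without KO saline replicate 5). The main liver isoforms Cox4i1, Cox6a1, Cox6b1, Cox7a2 and Cox8a were not called in either genotype. Cox6c was lower in WT livers (log2 -0.24, SE 0.0915, adjusted p = 0.0309 by edgeR), a call lost without any of 6 libraries (up to 0.0768, without WT saline replicate 3).

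Isoforms known from other tissues stayed low. Cox6b2, a testis form, had 1.603, 0.907, 1.76, 2.43 and 0.803 CPM in KO livers under L-AC, against 0.787, 0.755, 1.17, 1.31 and 0.58 CPM under saline. It ran from 0.963 to 2.41 (median 1.49) CPM in WT livers under L-AC, against 0.414 to 1.54 (median 0.58) CPM under saline, and was called higher there (log2 1.05, SE 0.307, adjusted p = 6.34e-03 by edgeR) and not in KO livers (0.70, SE 0.352, adjusted p = 0.105). WT saline replicate 7 was the highest of its group and lay inside the L-AC range. Cox7a1, the heart and muscle form, averaged 0.653 ± 0.152 CPM in KO livers under L-AC against 0.883 ± 0.170 CPM under saline (SD, n = 5 each), and was not called in either genotype. Both sat close to the limit of the rule, with 16 to 115 and 14 to 37 counts per library, as did Ndufa4l2. Just outside it were Cox4i2, Cox6a2, Cox7b2, Cox8b and Cox8c, of which Cox8b came nearest with 10 or more counts in 2 libraries and at most 13.

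Complex V showed the largest rises among the subunits of high level. The catalytic F1 head, alpha (Atp5a1) and beta (Atp5b), and Atp5g3 of the c ring rose in both genotypes. Of the small subunits, Atp5j and Atp5j2 were called lower in both genotypes, and Atp5e and Atp5k in WT livers alone. The KO calls of Atp5j and Atp5j2 were lost without some single libraries, as given below. Over all genes 25.2% were called higher and 23.6% lower in KO livers, and 26.6% and 26.7% in WT livers. Atp5g3 encodes 1 of 3 precursors of the same mature subunit c, the ring that protons turn. It had 596, 663, 507, 628 and 589.9 CPM in KO livers under L-AC, against 441, 463, 414, 404 and 389 CPM under saline. In WT livers the range was 537 to 629 (median 598) CPM under L-AC, against 370.0 to 483 (median 414) CPM under saline. Every L-AC library lay above every saline library, and the rise was 1.41-fold in KO livers (log2 0.50, SE 0.0840, adjusted p = 4.23e-05 by edgeR) and 1.42-fold in WT livers (log2 0.50, SE 0.0735, adjusted p = 6.71e-06).

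The other genes for subunit c had smaller fitted changes. Atp5g2 was called higher in WT livers (72.9 ± 3.10 CPM under L-AC against 62.5 ± 6.49 CPM under saline, SD, n = 6 and 7, log2 0.22, SE 0.0705, adjusted p = 0.0108 by edgeR) and not in KO livers (log2 0.12). Atp5g1 was called in neither, at 110 ± 10.6 CPM in KO livers under L-AC against 109 ± 11.3 CPM under saline (SD, n = 5 each). Per length, in TPM, counts divided by exon length and scaled to a fixed total in each library, so that levels of genes can be compared, Atp5g3 supplied 78.6% ± 1.33 of the summed subunit c level in KO livers under L-AC against 73.2% ± 0.627 under saline (SD, n = 5 each). In WT livers it supplied 78.5% ± 0.624 under L-AC against 74.0% ± 1.69 under saline (SD, n = 6 and 7). The lowest L-AC library stood at 77.1% and the highest saline library at 76.2%, and a share within a library is free of scaling between libraries.

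**Figure D2:**
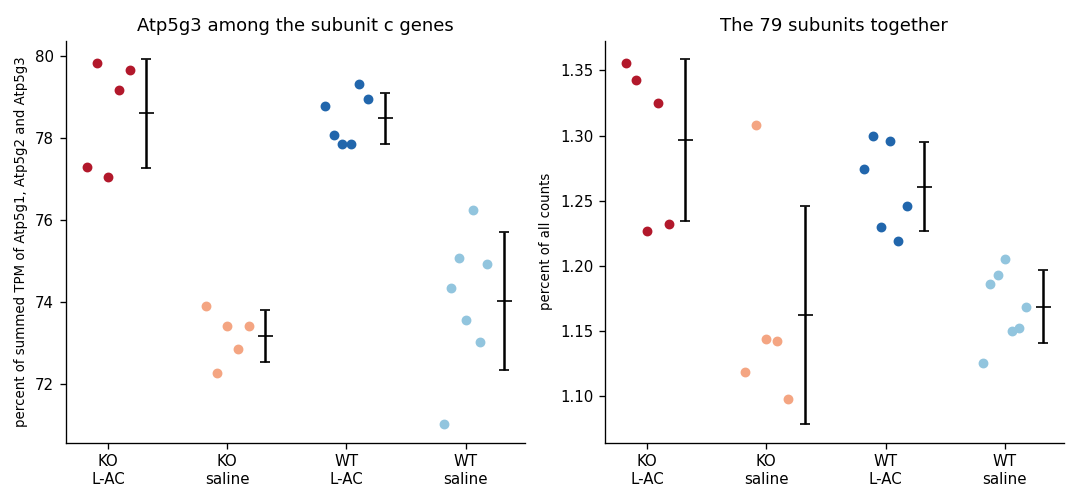
Left, Atp5g3 as a percentage of the summed TPM of the 3 subunit c genes; right, the 79 subunits as a percentage of all counts (neither axis starts at 0). Points are libraries and black marks are mean and SD; all L-AC libraries lie above 77% on the left, and KO saline replicate 2, at 1.31% on the right, stands among the L-AC libraries.

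In the F1 head, Atp5a1 had 1130, 1151, 1218, 1281 and 1286 CPM in KO livers under L-AC, against 929, 1021, 914, 911 and 919 CPM under saline, without overlap. In WT livers the range was 1145 to 1346 (median 1236) CPM under L-AC, against 873 to 1110 (median 921) CPM under saline, also without. It rose 1.29-fold in KO livers (log2 0.37, SE 0.0827, adjusted p = 8.17e-04 by edgeR) and 1.31-fold in WT livers (log2 0.39, SE 0.0725, adjusted p = 1.16e-04). Atp5b averaged 1402 ± 38.5 CPM in KO livers under L-AC against 1185 ± 59.6 CPM under saline (SD, n = 5 each), a rise of 1.18-fold, and also rose 1.18-fold in WT livers. The gamma and delta subunits of the stalk, Atp5c1 and Atp5d, were not called. The epsilon subunit Atp5e was called lower in WT livers (log2 -0.32, SE 0.110, adjusted p = 0.0184 by edgeR, and 0.0503 without WT L-AC replicate 5).

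Of the membrane subunits e, f and g, which link ATP synthases into dimers, Atp5j2 (subunit f) was called lower in both genotypes, by 0.27 on the log2 scale in KO livers and by 0.29 in WT livers. Its KO call (adjusted p = 0.0485 by edgeR) was lost without any of 15 libraries, up to 0.155 without KO saline replicate 2. Atp5k (subunit e) was called lower in WT livers (log2 -0.32, SE 0.111, adjusted p = 0.0191 by edgeR, and 0.0525 without WT saline replicate 3), and Atp5l (subunit g) in neither. In the peripheral stalk, which holds the head still, Atp5j was lower in both (log2 -0.23 in KO livers and -0.29 in WT livers), and its KO call was lost on leaving out any of 4 KO libraries (replicates 1 and 2 under saline and 3 and 5 under L-AC; adjusted p up to 0.077). Atp5f1, Atp5h and Atp5o of the same stalk were not called.

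A pair of members carry an Atp5 name without being subunits of the enzyme. Atp5sl, now called Dmac2 and known in human cells as an assembly factor of the distal membrane arm of complex I, had 15.3, 12.2, 9.56, 11.8 and 14.4 CPM in KO livers under L-AC, against 16.8, 25.7, 24.4, 24.4 and 31.7 CPM under saline. Levels in WT livers ran from 10.9 to 15.2 (median 12.9) CPM under L-AC, against 16.5 to 27.3 (median 23.8) CPM under saline. The groups did not overlap, and the fall was 1.95-fold in KO livers (log2 -0.96, SE 0.171, adjusted p = 8.17e-05 by edgeR) and 1.74-fold in WT livers (log2 -0.80, SE 0.151, adjusted p = 1.24e-04). Atp5s, the coupling factor B, rose 1.35-fold in KO livers (9.05 ± 0.485 CPM under L-AC against 6.73 ± 0.958 CPM under saline, SD, n = 5 each, adjusted p = 0.0264 by edgeR), and its adjusted p was up to 0.0674 on leaving out any of 3 KO libraries, highest without KO saline replicate 5.

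**Figure D3:**
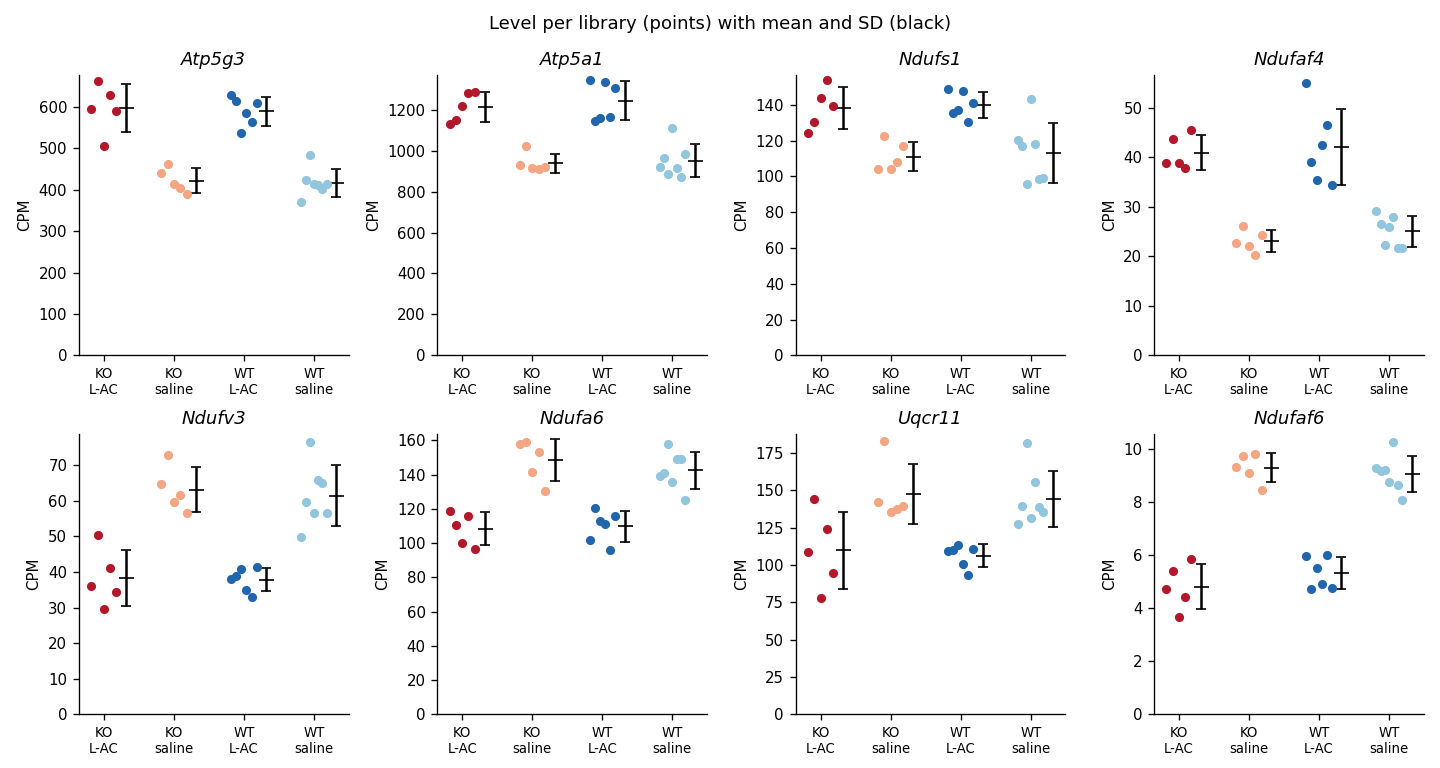
Level in CPM (TMM-scaled) of 4 members that rose (top) and 4 that fell (bottom) under L-AC; points are libraries and black marks are mean and SD, with all axes from 0. In the top row L-AC points lie above saline points, apart from 1 WT saline library of Ndufs1, and in the bottom row below them, apart from 1 KO L-AC library of Uqcr11.

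Summed over each complex, the direction hung on the scale except for complex V. Its summed level was 4509 ± 392 TMM-scaled CPM per kilobase in KO livers under L-AC against 4146 ± 309 under saline (SD, n = 5 each), and 4486 ± 233 in WT livers under L-AC against 4171 ± 166 under saline (SD, n = 6 and 7). In TPM it was 9092 ± 280 in KO livers under L-AC against 7429 ± 418 under saline, and 8896 ± 281 in WT livers under L-AC against 7456 ± 196 under saline. Complex I stood lower under L-AC in CPM per kilobase, at 3808 ± 451 in KO livers under L-AC against 4157 ± 347 under saline and 3806 ± 219 in WT livers under L-AC against 4184 ± 286 under saline. In TPM it stood slightly higher, at 7669 ± 479 in KO livers under L-AC against 7448 ± 499 under saline and 7546 ± 262 in WT livers under L-AC against 7469 ± 182 under saline. These sums are descriptions, and they were not tested.

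In WT saline livers the highest members per length were Atp5b at 1140 ± 145 TPM, Cox4i1 at 1135 ± 83.6 TPM, Atp5g3 at 1096 ± 54.8 TPM, Cox6a1 at 1051 ± 46.0 TPM and Uqcrq at 1012 ± 113 TPM (SD, n = 7), neighbours that differ by less than their spread. At the other end stood Cox7a1 at 3.70 ± 0.458 TPM, Cox6b2 at 2.12 ± 1.20 TPM and Ndufa4l2 at 1.75 ± 0.387 TPM.

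No subunit was called between genotypes. Between KO and WT livers edgeR called 0 of 79 subunits and 0 of 7 Ndufaf genes under L-AC, and likewise 0 and 0 under saline, where the background was 0.0141% of genes in each comparison. At an unadjusted p under 0.05, 0 subunits passed under L-AC and 1 under saline, where 4.53% and 1.86% of all genes did, and calls in 1 direction made up 0.00704% of genes each way in both comparisons. DESeq2 and limma-voom also called 0 subunits. The 1 subunit was Sdhd, at 159 ± 16.9 CPM in KO livers against 142 ± 12.4 CPM in WT livers under saline (SD, n = 5 and 7), a log2 difference of 0.17 (SE 0.0791). Its adjusted p was 1 by edgeR. In the test of the difference between KO and WT responses, 0 subunits were called by edgeR, DESeq2 or limma-voom against a background of 0%, and Sdhd was the 1 subunit with an unadjusted p under 0.05 by edgeR (log2 -0.25, SE 0.114), as were 2.25% of genes. Over the subunits, the difference of KO from WT had a median of 0.004 on the log2 scale under L-AC and -0.008 under saline, and ran from -0.17 to 0.41 under L-AC and from -0.13 to 0.33 under saline.

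Most subunits have short transcripts, with a median exon length of 681 bases (292 to 2927) against 2798.5 bases over all genes tested, and the response to L-AC was read beside length. Among the 14 subunits up to 500 bases the median was -0.23 on the log2 scale in KO livers (1 called higher, 6 lower) and -0.26 in WT livers (1 higher, 8 lower), while the 341 genes tested in that bin had medians of 0.06 and 0.02. Of these 341 genes, 19.9% were called higher and 17% lower in KO livers, and 20.2% and 21.1% in WT livers. Between 500 and 700 bases the 27 subunits had medians of -0.04 in KO livers and -0.09 in WT livers, and all 287 genes had -0.09 and -0.15. From 1500 to 2500 bases the 11 subunits had medians of 0.10 in KO livers and 0.08 in WT livers, and all 3432 genes had -0.02 and -0.05. From 700 to 1000 bases the subunits had medians of -0.045 in KO livers and -0.023 in WT livers, and all genes -0.059 and -0.123. From 1000 to 1500 bases these were 0.092 and 0.045, and -0.026 and -0.096. The 3 subunits of 2500 to 4000 bases had -0.049 and -0.021, and all genes 0.028 and 0.016. Subunit medians thus lay below those of all genes in the shortest bin, above them from 500 to 2500 bases, and below them again past 2500 bases. The share of the response that goes with length was not tested.

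**Figure D4:**
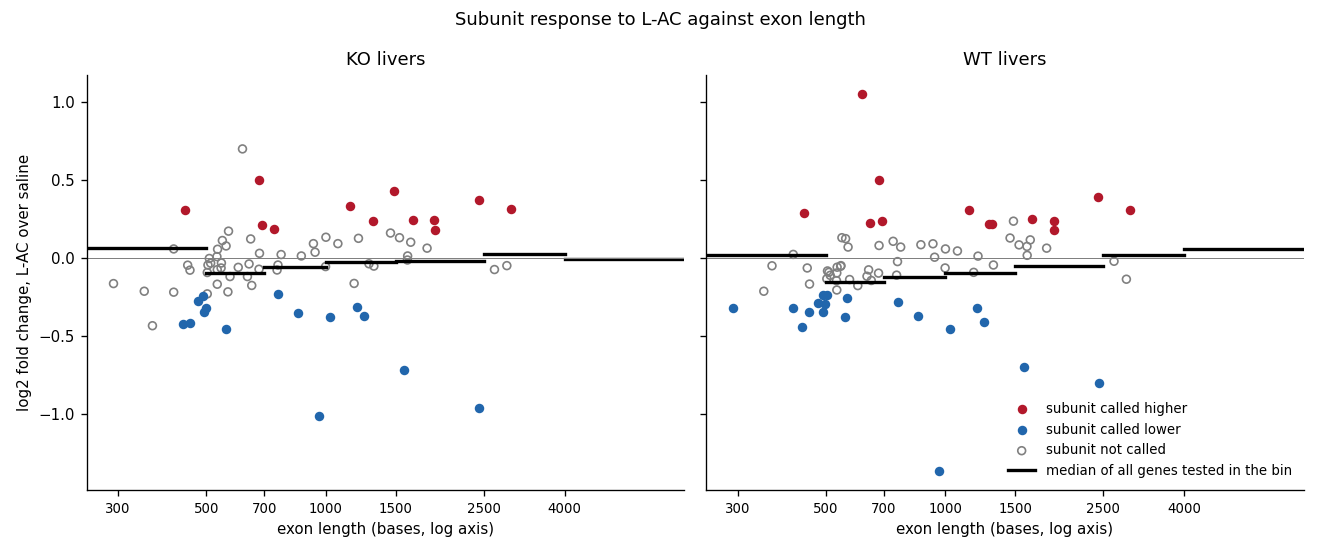
Log2 fold change under L-AC over saline of the 79 subunits against exon length (log axis) in KO livers (left) and WT livers (right), with the median of all genes tested in each length bin as black lines. Many lower calls lie at or below 500 bases, most higher calls lie above 500 bases, and the black lines run from -0.15 to 0.06.

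Around the respiratory chain, genes of the tricarboxylic acid cycle, which feeds it NADH, had a higher median change than the subunits. In both genotypes 9 of 14 were called higher, against 25.2% of all genes in KO livers and 26.6% in WT livers, and 1, Idh2, lower, with a median of 0.46 in KO livers and 0.43 in WT livers beside -0.01 in each over all genes. Dlst, a subunit of the oxoglutarate dehydrogenase complex, rose 2.03-fold in KO livers and 1.95-fold in WT livers, and Mdh2, malate dehydrogenase, 1.63-fold and 1.5-fold (all adjusted p by edgeR at or under 1.27e-06).

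Electron entry beside complexes I and II was split, with 2 of 7 genes called higher and 3 lower in both genotypes. Over all genes 25.2% were called higher and 23.6% lower in KO livers, and 26.6% and 26.7% in WT livers. Gpd2, of the glycerol phosphate shuttle, rose 2.84-fold in KO livers (143 ± 44.0 CPM under L-AC against 50.4 ± 8.98 CPM under saline, SD, n = 5 each) and 3.21-fold in WT livers (159 ± 48.3 CPM under L-AC against 49.4 ± 15.8 CPM under saline, SD, n = 6 and 7). Etfdh, which passes electrons from fatty acid oxidation to ubiquinone, rose 1.74-fold and 1.70-fold. Sqrdl, the sulphide quinone oxidoreductase, fell 2.72-fold in KO livers and 2.77-fold in WT livers (adjusted p = 3.78e-08 and 3.76e-09 by edgeR). In the synthesis of ubiquinone itself, 5 of 10 genes were called higher in each genotype, against the same 25.2% and 26.6% of all genes. Lower calls were 1 in KO livers and 2 in WT livers. Coq7 rose 2.54-fold in KO livers and 2.28-fold in WT livers, Coq4 3.35-fold and 2.54-fold, while Adck3, also known as Coq8a, fell 3.47-fold and 2.58-fold.

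Of the carriers and uncoupling proteins of the inner membrane, 6 of 6 tested were called higher in KO livers and 5 of 6 in WT livers, against 25.2% and 26.6% of all genes. Slc25a3, the phosphate carrier that supplies ATP synthase, rose 1.79-fold and 1.88-fold, and the adenine nucleotide carrier Slc25a5 1.24-fold and 1.32-fold. Ucp2 rose 5.31-fold and 4.70-fold. Ucp3 averaged 1.94 ± 1.36 CPM in KO livers under L-AC against 0.0696 ± 0.0385 CPM under saline (SD, n = 5 each). In WT livers it averaged 2.09 ± 1.32 CPM under L-AC against 0.128 ± 0.130 CPM under saline (SD, n = 6 and 7). These levels were low. The lowest KO library under L-AC, at 0.0926 CPM, lay inside the KO saline range of 0.0260 to 0.126 CPM. The WT groups did not overlap.

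In assembly and inhibition of complex V, Atpaf1 and Atpif1 changed in opposite directions. The assembly factor Atpaf2 was not called (log2 -0.015 in KO livers and -0.081 in WT livers). Tmem70 was called higher in KO livers alone (log2 0.219, and 0.061 in WT livers). Atpaf1, a chaperone of the F1 head, rose 1.87-fold in KO livers and 1.84-fold in WT livers, and Atpif1, the inhibitor of ATP hydrolysis, fell 2.04-fold (3.95 ± 0.627 CPM under L-AC against 8.07 ± 2.0 CPM under saline, SD, n = 5 each) and 1.97-fold (3.44 ± 0.306 CPM under L-AC against 6.79 ± 1.10 CPM under saline, SD, n = 6 and 7). Of 22 complex IV assembly factors 8 were called higher and 4 lower in KO livers, and 7 higher and 5 lower in WT livers. The shares over all genes were 25.2% higher and 23.6% lower in KO livers, and 26.6% and 26.7% in WT livers. The copper chaperone Sco2 and the haem enzymes Cox10 and Cox15 were higher in both genotypes, and Cox20, Sco1, Surf1 and Pet100 lower in both. Among 5 complex III assembly factors, Ttc19 was higher in both, Uqcc2 lower in both and Bcs1l lower in WT livers alone (log2 -0.499, and -0.320 in KO livers). Sdhaf2, 1 of 2 complex II factors, was lower in both.

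Of 13 genes that control the transcription of respiratory genes, 5 were called higher and 1 lower in KO livers, and 6 higher and 1 lower in WT livers, shares called of 46.2% and 53.8% against 48.8% and 53.3% of all genes. The coactivators Ppargc1b (2.09-fold and 2.20-fold higher) and Ppargc1a (1.56-fold and 1.63-fold lower) moved in opposite directions, and Gabpb1, a partner of the ETS factor GABPA, rose 1.38-fold and 1.37-fold. Nrf1, Yy1, Esrra and Tfam, a packaging factor of mitochondrial DNA, were not called in either genotype. Mitochondrial ribosomal proteins, 77 genes chosen by name and the same count limit, had 21 called higher and 17 lower in KO livers, and 18 higher and 28 lower in WT livers, with medians of 0.04 and -0.05. Beside these, 25.2% of all genes were called higher and 23.6% lower in KO livers, and 26.6% and 26.7% in WT livers.

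**Figure D5:**
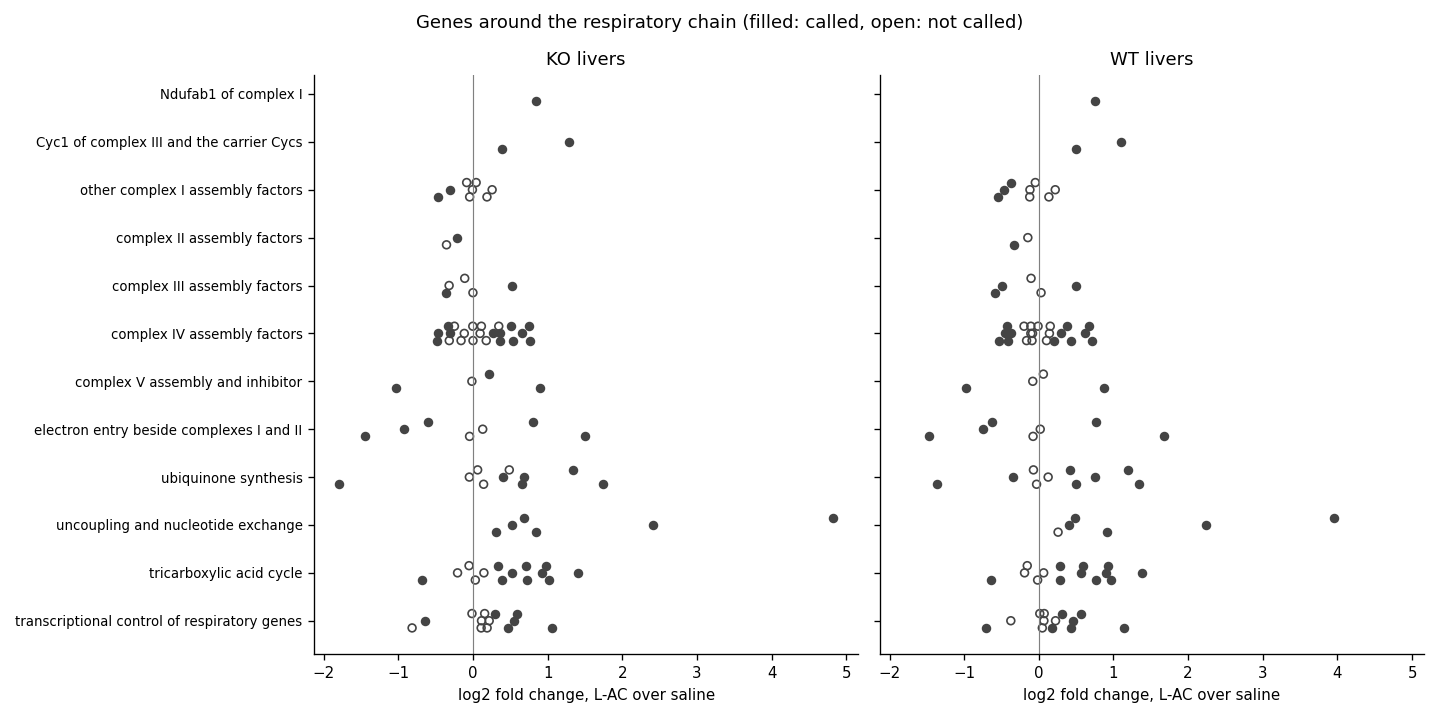
Log2 fold change under L-AC over saline of every tested gene in 12 groups around the respiratory chain, in KO livers (left) and WT livers (right); each point is a gene, filled where called. Points of the tricarboxylic acid cycle and of uncoupling and nucleotide exchange lie mostly right of 0, and those of electron entry and ubiquinone synthesis spread to both sides, from Adck3 and Sqrdl to Gpd2, Coq4 and Coq7.

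Some members share reads with another gene, because the counting ignored strand and gave a read to every gene it overlapped. Exons of 9 subunits overlap those of another gene. For Ndufs5 the overlap with BC002163 covers 95.1% of its exon length, so its level cannot be told from that of BC002163, and Ndufs5 was not called. Ndufa13 shares 27.5% with Tssk6 and Atp5j 16.2% with Gabpa, which averaged 68.0 ± 5.57 CPM in KO livers under L-AC against 61.0 ± 4.6 CPM under saline (SD, n = 5 each). Smaller overlaps exist for Atp5f1, Uqcrc2, Ndufa2, Ndufs1, Ndufb11 and Ndufa4l2, and the part of the partner gene in their values was not tested.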

How the data were processed

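RNA from 23 mouse livers was sequenced on a HiSeq 2500 as single 100-nt reads, per the labels. The authors deposited raw counts per gene, made with featureCounts 1.4.4 per the file headers over exons, ignoring strand and counting a read for every overlapping gene, and STAR 2.4.0 and mm10 are named in the submitters' processing notes. Counts were tested with edgeR 4.0.16 (TMM scaling, filterByExpr, 1 mean per group, quasi-likelihood F test, Benjamini-Hochberg adjustment over 14196 genes, called at 0.05). CPM used the TMM-scaled library size, and TPM divided counts by exon length. Totals of 24521896 to 48095959 counts leave little counting error except for the lowest isoforms. The members and gene lists were chosen with earlier results of these data known, and the roles were assigned after values were seen. Genes given with values were the called extremes of each complex, isoforms of other tissues, subunit c genes, Ndufaf factors, the smallest p of the genotype tests, up to 3 genes of each related list, and a few chosen after their values were seen (Ndufa4, Idh2, Slc25a5, Gabpa and the other related genes beyond 3 in a list). Alternatives used DESeq2 1.42.0, limma 3.58.1, other scalings and filters, age and left-out libraries. Replicates were compared in 56 pairs, and none agreed within sampling noise. The labels do not state separate cultures or litters, so p-values measure the spread between these mice. Protein sequences were not used here, and a few single-gene results are not reported here.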

Additional observations from a re-analysis of the deposited data

Results flagged for a closer look

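Among 160 groups of libraries tested for 1 value far from the rest of its group, 13 stood out, and chance flags about 1 in 20. Of these, 7 were in KO saline replicate 2: Ndufa8 at 88.0 CPM (the others 71.7 to 75.1), Ndufb6 at 65 CPM (50.2 to 54.4), Uqcr11 at 183 CPM (135 to 143), Atp5a1 at 1021 CPM (911 to 929), Atp5k at 78.4 CPM (52.4 to 58.1), Ndufaf1 at 24.9 CPM (22.3 to 22.7) and the share of all counts in the subunits at 1.31% (1.10 to 1.14%). In WT saline replicate 3, Uqcrq stood at 375 CPM (244 to 294), Atp5j2 at 136 CPM (97.8 to 112) and Atp5k at 76.3 CPM (55.9 to 64.6). Sdhd stood at 168 CPM in WT saline replicate 4 (131 to 141), Cox6b2 at 1.54 CPM in WT saline replicate 7 (0.414 to 0.844) and Atp5g2 at 81.4 CPM in KO L-AC replicate 1 (68.5 to 71.3).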

How the results depend on the processing

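None of 60 results for single genes changed direction under any alternative run. Medians near 0 and the balance of calls did: with library size alone, chosen after seeing the data, the median change of the subunits was 0.066 in KO livers in place of -0.045 and 0.009 in WT livers in place of -0.059, that of the Ndufaf genes in KO livers was 0.038 in place of -0.067, and 20 subunits were called higher and 10 lower in KO livers in place of 12 and 15. The median of the subunits in KO livers ran from -0.079 to 0.025 on leaving out 1 library, positive without KO L-AC replicate 3 or KO saline replicate 2. At an adjusted p under 0.01, 13 subunits were called in KO livers in place of 27, and 5006 of all 14196 genes in place of 6924. Leaving out 1 library at a time gave 22 to 29 subunits called in KO livers and 28 to 33 in WT livers. It gave 3 to 4 and 4 to 4 Ndufaf genes, and 0 in every genotype comparison. The shares of all genes called in those runs are not given here. Of the 60 results, DESeq2, limma-voom and DESeq2's size factors lost 0 calls, upper quartile scaling 1, testing genes of any count lost 4, a minimum of 1 CPM in at least 5 libraries lost 1 of 59, age as a covariate 3, fits of the compared groups alone 6 of 57, an adjusted p under 0.01 lost 18, and library size alone 5. With the compared groups alone the lost calls among these results were those of Ndufa8, Uqcrfs1, Uqcrq, Cox5a, Atp5j and Atp5j2 in KO livers. The cause was not tested. Over all subunits, that run called 19 in KO livers (8 higher and 11 lower) in place of 27. It called 6298 of 13420 genes tested there, in place of 6924 of 14196. Age as a covariate gave 23 subunits in KO livers, with 6290 of 14196 genes called. Testing genes of any count gave 22, with 6830 of 19861 genes called. In WT livers these runs gave 33, 32 and 31 subunits called, in that order, in place of 32. Their calls over all genes in WT livers were 7290 of 13732, 7605 of 14196 and 7589 of 19861, in place of 7572 of 14196. Calls outside the 60 results, among them that of Uqcrc2 in KO livers, were not followed singly. No paired analysis was possible because the labels give the groups no shared replicate numbers. Counts of 9 to 115 per library limit Ndufa4l2, Cox7a1 and Cox6b2.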
